A study of Mus musculus with 2 samples.

Results

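The hepatokines and the activin family studied here are secreted proteins of the liver, together with the activin inhibitor follistatin. They were taken by gene symbol, and no measured value enters the rule, although the symbols were listed with earlier results of these data known. The list held 10 genes, namely Fgf21, Gdf15, Inhba, Inhbc, Inhbe, Fst, Ahsg, Fetub, Lect2 and Enho, and all probe sets annotated with one of these symbols were used. They came to 14 of the 45101 probe sets of the array and covered 9 of the 18193 genes named there. No probe set carried the symbol Gdf15 in the annotation used, and that gene was not analysed here.

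Liver RNA came from calorie-restricted (CR) and ad libitum fed (AL) male wild-type C57BL/6J mice, an inbred laboratory strain, 5 months old at collection. CR mice received 20% less food in week 1 and 40% less for the 11 weeks that followed, and AL mice ate freely over the same 12 weeks, both from 8 weeks of age and housed singly. RNA of 3 mice per diet was pooled in equal amounts, and each pool was hybridised to 1 Affymetrix array. With 1 pooled array per diet there was no replicate and no test, so each value compares these pools only and the spread between mice is unknown.

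Hepatokines are proteins that hepatocytes release into the blood to act on other organs. FGF21 signals through FGF receptors together with the co-receptor beta-klotho, and it is known as a hormone of fasting and of low protein intake. Activins are dimers of inhibin beta subunits that bind activin receptors and signal through SMAD proteins, and follistatin binds activins and blocks them. Inhbc and Inhbe encode the beta C and beta E subunits, which are made chiefly in hepatocytes.

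The promoters of Fgf21, Inhbe and Inhbc are shown first, because Fgf21 and Inhbe had the largest positive differences of the family and Inhbc, the direct neighbour of Inhbe on chromosome 10, was lower in CR. Each line gives the 250 bases before the gene's start in the RefSeq annotation of GRCm38.p6, 5′ to 3′ on the gene's strand. All 3 genes lie on the minus strand, Fgf21 at chr7:45615491-45615740, Inhbe at chr10:127351849-127352098 and Inhbc at chr10:127370549-127370798. Capitals mark matches to TGATGNAAN on either strand, the composite element bound by ATF4 with C/EBP factors.
Fgf21: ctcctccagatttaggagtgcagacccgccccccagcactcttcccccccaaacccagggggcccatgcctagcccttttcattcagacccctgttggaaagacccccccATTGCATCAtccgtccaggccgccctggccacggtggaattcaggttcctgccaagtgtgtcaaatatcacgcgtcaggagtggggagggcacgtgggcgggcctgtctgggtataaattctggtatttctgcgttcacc
Inhbe: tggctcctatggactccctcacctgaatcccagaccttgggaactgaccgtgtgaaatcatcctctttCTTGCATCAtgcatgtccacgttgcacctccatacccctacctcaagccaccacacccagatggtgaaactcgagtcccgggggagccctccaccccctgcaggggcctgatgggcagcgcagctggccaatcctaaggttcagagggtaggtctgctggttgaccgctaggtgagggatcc
Inhbc: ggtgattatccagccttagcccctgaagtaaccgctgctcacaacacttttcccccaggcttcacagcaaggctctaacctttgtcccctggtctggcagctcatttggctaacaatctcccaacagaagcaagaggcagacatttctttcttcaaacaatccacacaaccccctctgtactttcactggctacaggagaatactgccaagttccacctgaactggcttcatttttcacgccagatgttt

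The match in Fgf21 was ATTGCATCA, at bases -140 to -132 from the start, and that in Inhbe was CTTGCATCA, at bases -182 to -174. On the opposite strand they read TGATGCAAT and TGATGCAAG. TGATGNAAN was found in 3.44% of the 32851 RefSeq promoter windows, and its narrower form TTGCATCA in 0.791%. Promoter windows were matched for 8 members, 10 windows in all, and among these only Fgf21 and Inhbe held either form. The E-box CACGTG, in 6.02% of windows, stood in Fgf21 and in 1 of the Gdf15 windows, and TATAAA, in 12.4%, stood in Fgf21, Inhba and Fetub. The motifs were chosen with the values of the members known, 16 were searched, and a match describes letters and not a bound site.

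Across the 9 genes the differences between the pools were small. None was 2-fold different on its brightest probe set, where 1.80% of 12644 measured genes passed 2-fold upward and 2.79% downward. A gene was taken as measured if the higher of its 2 intensities reached the median of all values, 7.38. The log2 differences, CR minus AL, ran from -0.65 for Enho to 0.83 for Fgf21. Beside 47.4% of all measured genes, 4 of the 9 lay above 0, and 5 lay below. Their median was -0.05, beside a median of -0.02 over all measured genes, whose central 95% ran from -1.04 to 0.89. At the smaller size of 1.5-fold, 2 of the 9, Fgf21 and Inhbe, were higher in CR, against 6.76% of measured genes. Another 2, Ahsg and Enho, were lower, against 9.49%.

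**Figure D1:**
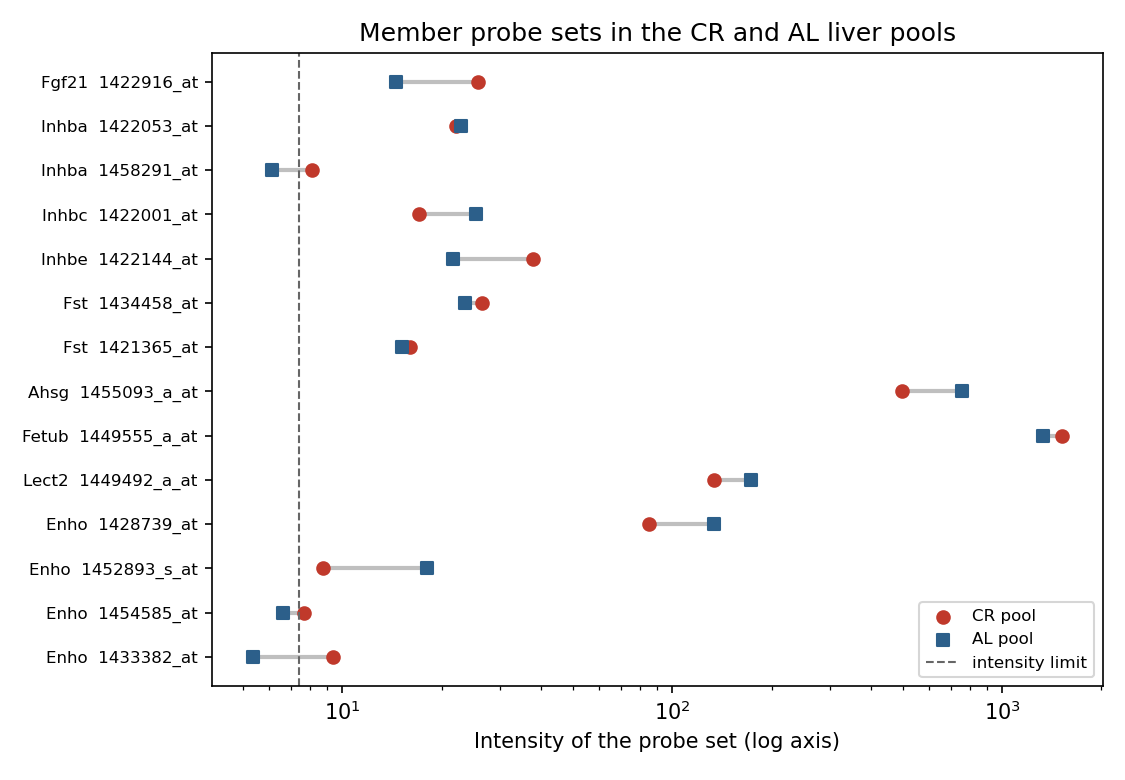
Intensity (log axis) of each of the 14 probe sets in the CR pool (red circles) and the AL pool (blue squares), with the intensity limit of 7.38 as a dashed line. Fgf21 and Inhbe lie higher in CR, Inhbc, Ahsg, Lect2 and the brighter Enho probe sets lower, and 3 probe sets have an AL value under the limit.

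Fgf21, the fasting hormone, had an intensity of 25.8 in the CR pool and 14.6 in the AL pool. The log2 difference of 0.83, a ratio of 1.77, was the largest positive one of the family. The probe set was its only one, so no other probe set could be set beside it. Its signal was modest, with the CR value above and the AL value below the 75th percentile of all values, 21.0. Of 2640 measured genes within 0.5 log2 units of its mean intensity, 1.82% were at least as far above 0, and the central 95% of their differences ran from -1.06 to 0.71.

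Inhbe, the activin beta E subunit, had an intensity of 37.9 in CR and 21.6 in AL. Its log2 difference of 0.81 was close to that of Fgf21, again on a single probe set. Among 2247 measured genes of like intensity, 2.71% were at least as far above 0, and the central 95% ran from -1.09 to 0.84, so that Inhbe lay just inside it.

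Inhbc, the beta C subunit, lay in the other direction, with 17.1 in CR and 25.5 in AL. The log2 difference was -0.57 on 1 probe set, and 9.77% of 2558 genes of like intensity were at least as far below 0. In the RefSeq gene table no gene lies between Inhbe and Inhbc, and the differences of these neighbours were 1.38 log2 units apart. That gap cannot depend on a shift of one whole array against the other. It shrank to 0.84 when 16 was added to every intensity before taking log2.

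Inhba, whose product forms activin A, showed nearly equal values of 22.2 in CR and 22.9 in AL on its brighter probe set, a log2 difference of -0.05. Its other probe set had 8.10 in CR and 6.11 in AL, the AL value under the limit. It reached the limit only through CR, so its sign was fixed, and against the limit it was at least 1.10-fold higher.

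Fst, follistatin, had 26.5 in CR and 23.6 in AL on its brighter probe set, a log2 difference of 0.17. The dimmer one had 16.03 in CR and 15.2 in AL, a difference of 0.08. Of 2361 genes of like intensity, 27.2% were at least as far above 0 as the brighter probe set, so neither stood out. In the activin family the hepatocyte subunits Inhbe and Inhbc therefore lay farther from 0 than Inhba and the inhibitor Fst, in opposite directions.

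**Figure D2:**
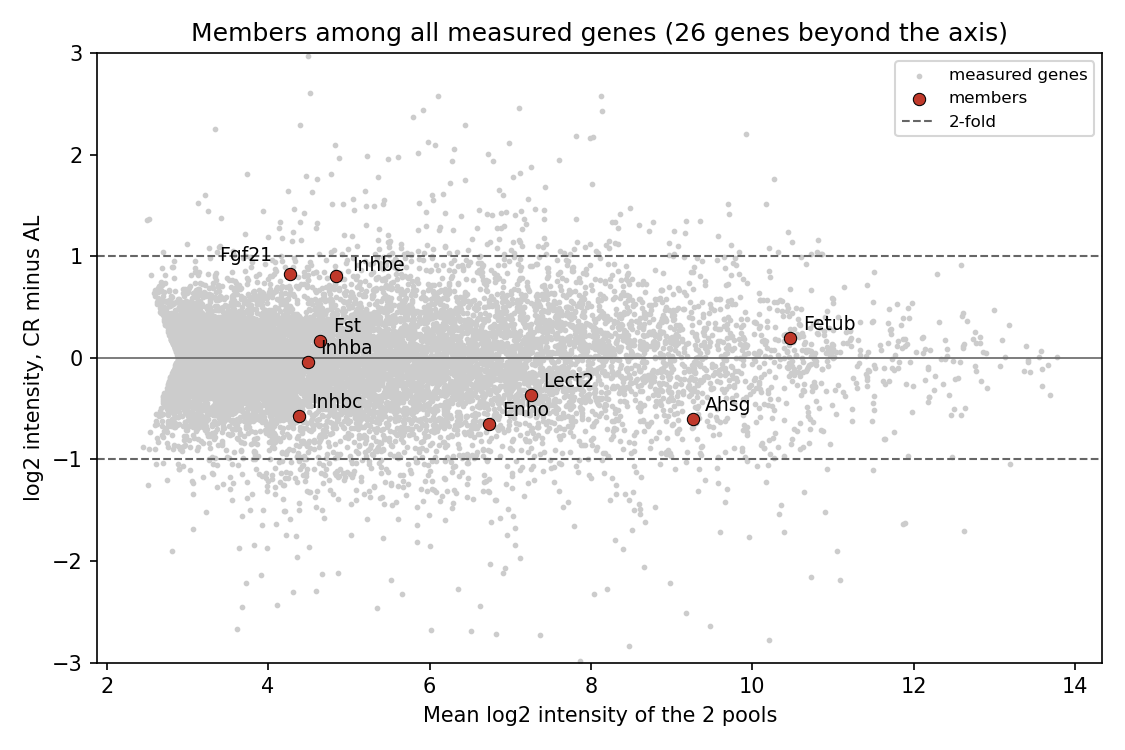
Log2 difference, CR minus AL, against the mean log2 intensity of both pools for the 12644 measured genes (grey) and the 9 members (red), with dashed lines at 2-fold; 26 genes lie beyond the vertical axis. All 9 members lie between the dashed lines, Fgf21 and Inhbe nearest the upper one.

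Ahsg encodes fetuin-A, a plasma protein that binds mineral and inhibits the insulin receptor, and Fetub encodes the related fetuin-B. Ahsg had an intensity of 498 in CR and 757 in AL, a log2 difference of -0.60. Among 449 genes of like intensity, 11.8% were at least as far below 0. Fetub had 1519 in CR and 1328 in AL, a difference of 0.19, and 29.3% of 246 genes of like intensity were at least as far above 0. Both genes lie on chromosome 16 with 1 noncoding RNA gene between them, and their differences were 0.80 apart. Hrg, the cystatin family gene next to Fetub, encodes a plasma glycoprotein and had 1065 in CR and 1915 in AL, a difference of -0.85.

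Lect2, a hepatokine first known as a neutrophil attractant, had 134 in CR and 173 in AL. The log2 difference was -0.37, and 21.6% of 1093 genes of like intensity were at least as far below 0. The probe sets of Ahsg, Fetub and Lect2 are all of the _a_at type, which can match several transcripts of a gene.

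Enho encodes adropin, a small secreted peptide linked to energy balance, and it had 4 probe sets. The brightest had 85.2 in CR and 134 in AL, a log2 difference of -0.65, the lowest among the 9 genes. Another had 8.72 in CR and 18.0 in AL, a difference of -1.05. It was the only one of the 14 probe sets past 2-fold, beside 2.97% of measured probe sets at least 2-fold lower. The remaining 2 probe sets had AL values under the limit. The nearer to the limit of these had 7.67 in CR and 6.59 in AL, a difference of 0.22, and the other had 9.34 in CR and 5.36 in AL, a difference of 0.80. Both of these reached the limit only through CR, so their sign was fixed, and against the limit they were at least 1.04-fold and 1.27-fold higher.

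Receptors and inhibitors of the activin pathway had few large differences. Of 12 measured activin and TGF-beta receptors, 5 lay above 0, beside 47.4% of all measured genes, and 7 below, with a median of -0.17. The type I receptor gene Acvr1 was 2-fold lower, beside 2.79% of all measured genes. It had 11.7 in CR and 24.8 in AL, a difference of -1.09, although its other probe sets reached 0.06. Tgfbr1 and Tgfbr2, the TGF-beta receptors, stood at -0.86 and -0.58, with another Tgfbr2 probe set at -0.01. The endothelial receptor Acvrl1 stood at 0.73 with an AL value under the limit. Acvrl1 reached the limit only through CR, and Acvr1c, with 7.03 in CR and 9.16 in AL, only through AL. Their signs in the counts were therefore fixed. The list of antagonists and co-receptors also held Inhbb, which encodes the activin beta B subunit, a ligand subunit, and stood at 0.14. Of its 7 measured genes, none was 2-fold different, 5 lay below 0 and the median was -0.19. Those farthest from 0 were the myostatin antagonists Wfikkn2 at -0.54 and Wfikkn1 at -0.19, the follistatin-like gene Fstl1 at -0.28 and the decoy receptor Bambi at -0.28. The CR value of Fstl1 lay under the limit, which it reached only through AL, so its sign in the count was fixed.

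Of 14 measured SMAD and target genes, 11 lay above 0 on their brightest probe sets, beside 47.4% of all measured genes. None of the 14 was 2-fold different. Their median was 0.48, and it was 0.09 on the average of each gene's probe sets. The common mediator Smad4 stood at 0.67 with probe sets down to -0.64. The feedback gene Pmepa1 stood at 0.58, the SMAD repressor Ski at 0.57 and the activin-regulated Smad2 at 0.57, and each had another probe set below 0. That of Pmepa1, with 5.67 in CR and 7.41 in AL, reached the limit only through AL, so its sign was fixed. Of 13 other TGF-beta superfamily ligands, none was 2-fold different and the median was 0.19. The bone morphogenetic protein genes Bmp6, Bmp5 and Bmp7 stood at -0.62, -0.42 and 0.42, and Gdf10 at -0.61. The CR value of Bmp6 lay under the limit, so its sign was fixed.

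**Figure D3:**
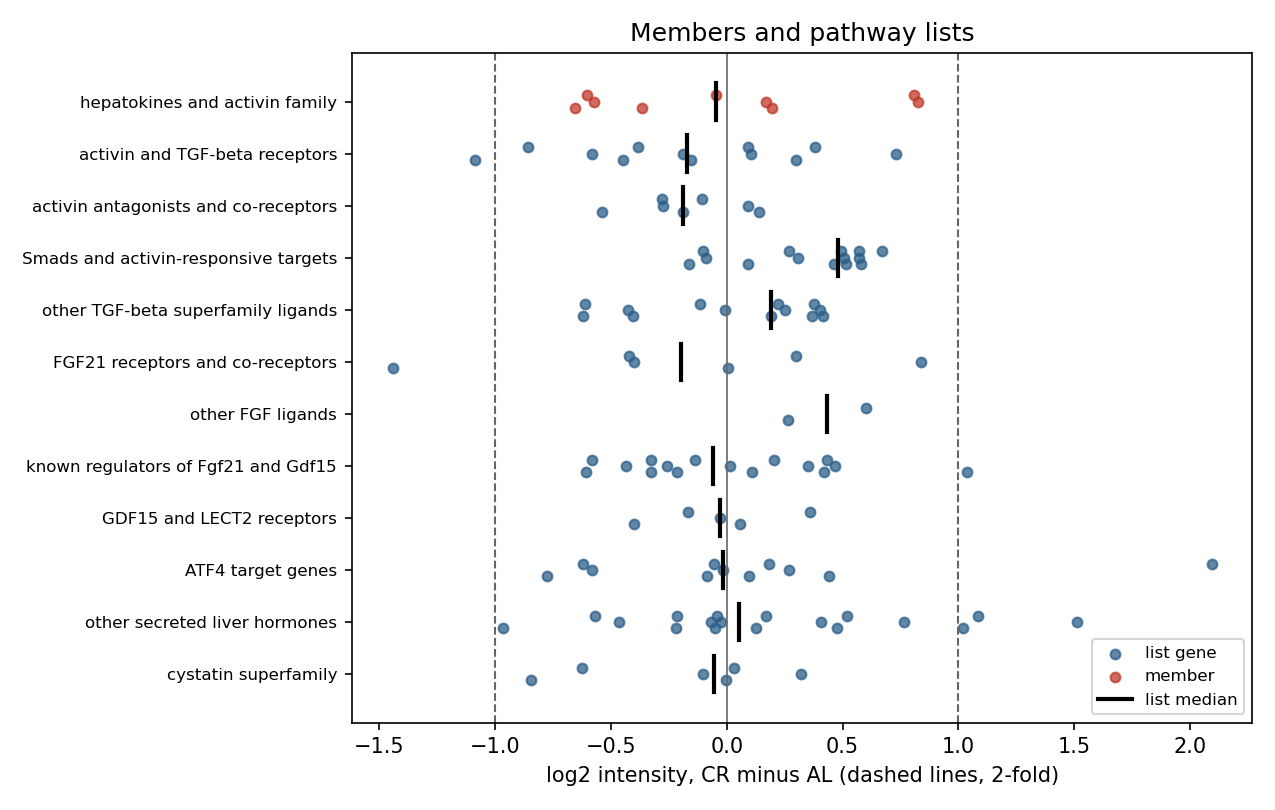
Log2 difference, CR minus AL, of the brightest probe set of each measured gene in the family (red) and in 11 pathway lists (blue), with list medians as black bars and dashed lines at 2-fold. Of the 110 measured list genes, 5 lie at or beyond 2-fold higher and 2 lower, beside 1.80% and 2.79% of all measured genes. Vldlr lies farthest at 2.09, on an _x_at probe set.

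On the FGF21 side, the gene of the co-receptor beta-klotho, Klb, had 52.9 in CR and 29.6 in AL, a log2 difference of 0.84 beside 0.83 for Fgf21. Of 6 measured receptors and co-receptors, Fgfr3 was 2-fold lower at -1.44, beside 2.79% of all measured genes. Fgfr4 stood at -0.42, with other probe sets at 0.11 and 0.07, and Fgfr2 at -0.40. Only 2 other FGF ligands were measured, Fgf1 at 0.60, with probe sets up to 1.79, and Fgf9 at 0.27 with an AL value above and close to the limit. Among 16 measured genes known to regulate Fgf21 or Gdf15, the receptor gene Ppara was 2-fold higher, beside 1.80% of all measured genes. Ppara, which drives Fgf21 in fasting, had 390 in CR and 190.5 in AL, a difference of 1.04. All 3 of its probe sets were at least 2-fold higher, up to 1.48. The early response factor Egr1 stood at -0.61, the carbohydrate-sensing factor gene Mlxipl at -0.58 and the oestrogen receptor gene Esr1 at 0.47, with another probe set past 2-fold at 1.86.

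Genes that ATF4 is known to switch on did not lie to one side. Of 11 measured, 5 lay above 0, beside 47.4% of all measured genes, and 6 below, with a median of -0.02. The lipoprotein receptor gene Vldlr stood at 2.09 on an _x_at probe set, a type that can match related transcripts. Another probe set stood at 0.07, and the rest, under the limit in both pools, read from 0.08 to 0.47. The asparagine synthetase gene Asns stood at -0.77, with another probe set at -1.10. Each of these Asns probe sets had a CR value under the limit and reached it only through AL. The sign of Asns in the count was therefore fixed. The stress gene Nupr1 stood at -0.62, with another probe set at -1.36, and the glutathione-cleaving enzyme gene Chac1 at -0.58. These values stand beside the shared promoter letters of Fgf21 and Inhbe, and the part of ATF4 in them was not tested.

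A further list held receptor genes and was not limited to receptors of GDF15 and LECT2. Among its 5 measured genes none was 2-fold different. Tie1, a LECT2 receptor, stood at -0.40 with its CR value under the limit, so its sign was fixed, and Met stood at -0.03. Ret, the co-receptor of GFRAL, stood at 0.06, Gpr19 at -0.17 and the insulin receptor gene Insr at 0.36, with another probe set at 0.002. Over all measured genes, 1.80% were 2-fold higher and 2.79% lower. Of 18 other secreted liver proteins, 3 were 2-fold higher and none lower, with a median of 0.05. They were Hamp2 at 1.51, the IGF-binding protein gene Igfbp1 at 1.09 and the lipase inhibitor gene Angptl4 at 1.02, and the hepcidin gene Hamp stood at -0.97, with another probe set at -1.11. The Hamp2 value came from an _x_at probe set, a type that can match related transcripts such as Hamp, and its other probe set, under the limit in both pools, read -0.16. Of 6 measured cystatin superfamily genes besides the fetuins, none was 2-fold different. They included Hrg at -0.85, the cystatin C gene Cst3 at -0.63, the kininogen gene Kng1 at 0.32, with another probe set at -0.03, and Cst7 at -0.10.

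Hepatocyte markers were bright in both pools, and albumin, their chief secreted protein, had 11794 in CR and 12765 in AL. Summed intensity over 8 measured hepatocyte markers was 54937 in CR and 57549 in AL, with a median difference of -0.07. Of these, 2 lay above 0 and 6 below, from -0.94 to 0.43. Markers of some other cell types differed too. Kupffer cell markers were below 0 in 9 of 10 genes, while 47.4% of all measured genes lay above 0. Their sums were 1790 in CR and 2055 in AL. Timd4, with 5.63 in CR and 10.4 in AL, reached the limit only through AL, so its sign was fixed. C1qb, the gene above 0, stood at 0.05 with probe sets from -1.25 to 0.12. All 4 measured neutrophil markers were below 0, with sums of 45.7 in CR and 120 in AL. Stellate, sinusoidal endothelial and lymphocyte markers had medians of -0.08, -0.06 and -0.06. Of the fat and pancreas markers, Adipoq lay under the limit in both pools, Lep had 10.3 in CR and 8.89 in AL, and the trypsin gene Prss2 had 16.9 in CR and 16.01 in AL. The elastase gene Cela1 had 37.2 in CR and 98.9 in AL, a log2 difference of -1.41. The erythroid enzyme gene Alas2, the 1 measured erythroid marker, had 7.43 in CR and 40.2 in AL, and 3 measured cholangiocyte markers had a median of 0.29. Fewer cells of a type and less RNA per cell cannot be told apart in whole liver, and their part in the differences of the members was not tested. All 6 control probe sets of beta-actin and Gapdh were lower in CR, from -1.61 to -0.67. The 3′ to 5′ signal ratio was 89.7 in CR and 83.5 in AL for beta-actin, and 53.2 and 46.9 for Gapdh. In both pools the 3′ signal of these controls thus far exceeded the 5′ signal, a strong 3′ bias. The ratios do not show that the RNA was intact, and RNA quality was not tested otherwise.

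The spike-in controls differed between the arrays, by a median of 1.04, or 0.36 for cre alone, so each difference above is relative to the typical gene. Shifting by all controls, a choice made after seeing the data, put the median gene at -1.06 and all 9 members below 0, with Fgf21 at -0.21 and Inhbe at -0.23. Shifting by cre left Fgf21 at 0.46 and Inhbe at 0.45 and moved Fst and Fetub below 0, at -0.19 and -0.17. The order of the members was the same under both shifts, since each is a constant.

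**Figure D4:**
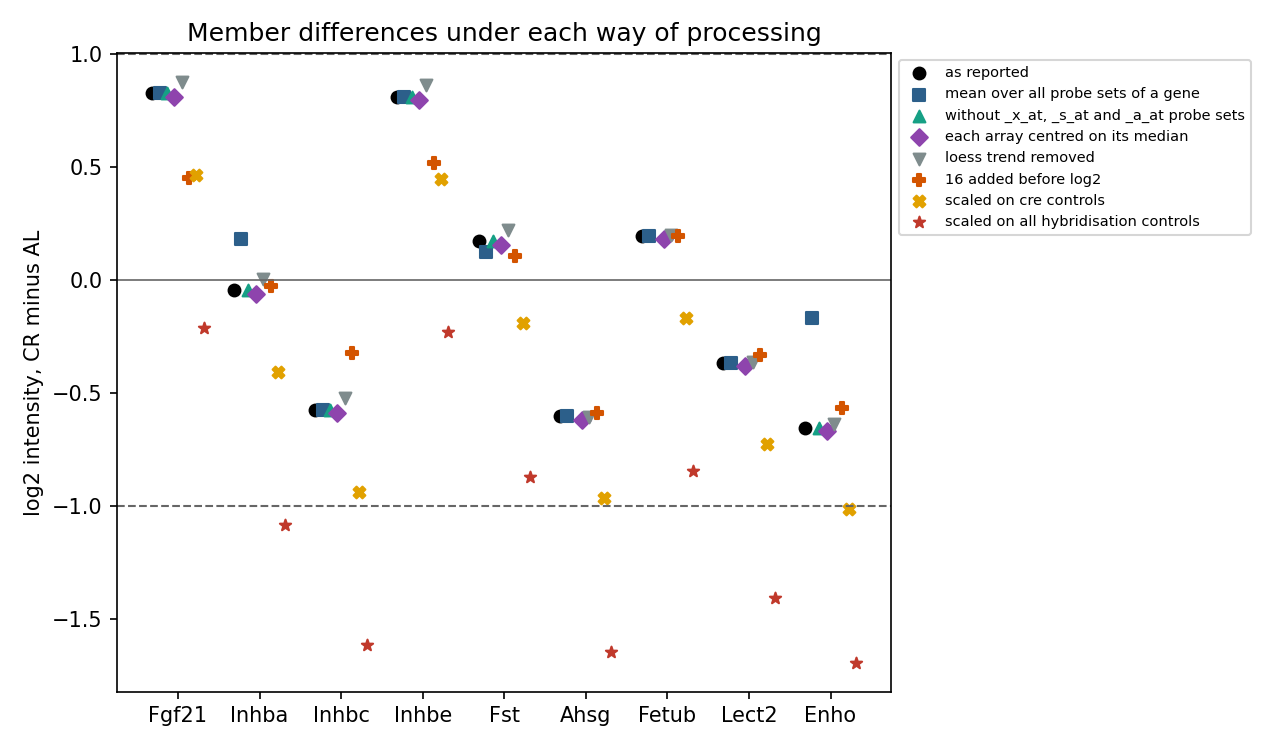
Log2 difference, CR minus AL, of each member as reported (black) and under 7 other ways of processing, with dashed lines at 2-fold. Fgf21 and Inhbe lie above 0 except after the shift by all hybridisation controls (red stars), and Inhbc, Ahsg, Lect2 and Enho lie below 0 in each.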

How the data were processed

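The series held 1 table of intensity values with a column per pool, deposited by the authors and RMA is the tool that the submitters' processing notes name. It corrects background, normalizes between arrays and combines the probes of each set. Its version is not given in the sources used here, nor is any further scaling. The deposited intensities had medians of 7.42 in CR and 7.35 in AL and carried no detection calls. They are on a linear scale, as values such as 11794 for albumin in CR show. Per the labels' protocols, cRNA was made from 6 ug of pooled RNA. Precision is limited by the number of arrays, 1 per diet.

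Log2 intensity of CR minus that of AL was taken per probe set. Names came from the platform annotation, in which 34945 probe sets had 1 symbol, 932 had several and 9160 had none, besides 64 controls. By Entrez ID, 34754 of 34958 single-symbol rows were found in RefSeq's GRCm38.p6 table. Each gene's value is that of its brightest probe set over both arrays, for 18193 genes. Counts use a 2-fold size rule, not a test. The text gives all member probe sets and, in each pathway list, every measured gene past 2-fold and the 4 farthest from 0. The members and lists were chosen with earlier results of these data known. The steps were tested on simulated data. The planted differences there were larger than that of any member, in genes brighter than several members. Recovery of differences as small and dim as those of such members was therefore not tested.

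Promoter windows were searched on both strands for 16 motifs, and overlapping matches were kept. Besides those in the text these were the nuclear receptor half-site AGGTCA (in 14.0% of windows), the cyclic AMP half-site TGACG (17.8%, also inside the full site), the glucocorticoid half-site TGTTCT (16.1%), the SMAD half-site CAGAC (42.2%), the C/EBP site TTGCNNAA (9.56%), the HNF1 half-site GTTAAT (6.43%) and the forkhead site GTAAACA (3.17%). No member window held DR1 (0.0335% of windows), the full cyclic AMP site TGACGTCA (1.55%), the STAT site TTCNNNGAA (7.02%), the SMAD palindrome GTCTAGAC (0.167%) or the HNF4 site CAAAGTCCA (0.384%). Tools were Python 3.11.15 with pandas 2.3.3 and numpy 2.4.6, statsmodels 0.14.6 for loess, and matplotlib 3.10.9 for figures.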

Additional observations from a re-analysis of the deposited data

How the results depend on the processing

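The differences were recomputed with each gene's probe sets averaged, without _x_at, _s_at and _a_at probe sets, with no intensity limit, with a limit at the 75th percentile, after median centring, after removal of a loess trend (span 0.4), with 16 added before log2 and with a 1.5-fold size rule. Under them Fgf21 ranged from 0.45 to 0.87, Inhbe from 0.52 to 0.86, Inhbc from -0.59 to -0.33, Ahsg from -0.62 to -0.59 and Enho from -0.67 to -0.17, with 1 sign each. Inhba changed sign in 2 of 7, from -0.06 to 0.18. Ahsg, Fetub and Lect2 had no value without the _a_at type. No alternative with the 2-fold rule made a member 2-fold higher. At 1.5-fold, 2 members were higher and 2 lower, and of 110 measured list genes 10 were higher and 11 lower, against 5 and 2 at 2-fold. List genes 2-fold higher numbered 3 and those lower 0 with 16 added, 3 and 1 with averaged probe sets, and 3 higher without the 3 probe set types. Scaling on all hybridisation controls, chosen after seeing the data, gave 5 members 2-fold lower, a member median of -1.09, a list median of -1.03 and 1 list gene higher and 57 lower. Scaling on cre, also chosen after seeing the data, gave 1 member lower, -0.41, -0.35, 2 higher and 6 lower. No paired analysis was possible because each diet had 1 pooled array, and no replicate could be left out. Low signal limits Fgf21, Inhba, Inhbc, Inhbe and Fst, which lie near the 75th percentile of 21.0.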
